A study of Catharanthus roseus with 15 samples.

Results

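Methyl jasmonate (MJ) sprayed on Catharanthus roseus seedlings was followed at 3 h by a set of high leaf transcripts that were no longer high at 24 h, and whose mean after ethephon (ETH) at 3 h was near that of the controls. The rule took 73 of the 33829 genes counted. Counts were scaled to CPM, the count per 1000000 counts of the library, and the log2 ratio of a group's mean to the 0 h mean was taken with 0.5 CPM added to both means. A gene was chosen if its largest group mean was at least 5 CPM, its ratio at MJ 3 h was at least 2 (4-fold), its ratio at ETH 3 h lay between -0.5 and 0.5 and its ratio at MJ 24 h was below 0.5. Its lowest MJ 3 h library also had to lie above its highest 0 h and MJ 24 h libraries. Of 14770 genes with a group mean of at least 5 CPM, 406 reached the ratio at MJ 3 h. Of these, 273 were above the ETH 3 h range, 43 were below it and 90 were inside. A further 5 were removed for their level at MJ 24 h and 11 for overlapping libraries, which left 74. The 4 IDs of LOX2, FAD7, MSL4 and HYS were left out by name, and FAD7 was the 1 of them that met all conditions. The genes were thus chosen by their levels in 4 groups (the controls, both MJ times and the early ETH time), and values of those groups are described below with no test.

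Leaves of the cultivar "Vitae Rose Red" were measured in 5 groups of 3 libraries: a control at 0 h, and leaves 3 h or 24 h after a spray of 100 µM ETH or 100 µM MJ. ETH releases ethylene inside the plant. Seedlings were grown in soil in a greenhouse, and their age is 2 weeks in the sample labels and 4 weeks in the study's methods, which also describe a water spray. No water-sprayed library was analysed here, so the effects of the hormone and of spraying or time of day cannot be told apart. The study calls its samples biological replicates and does not say whether plants were pooled. If they came from 1 batch of plants, the p-values measure only the spread between these libraries.

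Jasmonates are lipid hormones made in plastids and peroxisomes from polyunsaturated fatty acids. Plants respond to their active form by destroying JAZ repressor proteins, which frees transcription factors to act, and among the early targets are jasmonate synthesis genes and the repressors themselves, so that many responses are pulses. In C. roseus, jasmonate is best known for its effect on the monoterpenoid indole alkaloid (MIA) pathway, which leads to vindoline, catharanthine and ajmalicine.

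Library totals ran from 23710688 to 31168281 counts. Leaf identity was checked with 8 chloroplast genes, all of which had counts in every library, with a summed level of 3944 to 6396 CPM in the controls. Their sum was 2651 to 3684 CPM early after ETH (3 h) and 3144 to 3852 CPM late after ETH (24 h). After MJ it was 1859 to 3252 CPM early (3 h) and 3257 to 5544 CPM late (24 h). PSAF made up most of this sum, with a mean of 3770 CPM in the controls. Transcripts of young or dividing tissue were uneven between libraries. The 12 genes listed for it summed to 184 CPM in MJ 3 h replicate 1 and 141 CPM in ETH 3 h replicate 1, and to 39.7 to 50.5 CPM in the other 13 libraries. None of the 12 was at 0 in those 2 libraries. Without MJ 3 h replicate 1, the 73 genes had a median log2 ratio at MJ 3 h of 3.02, against 2.94 with it, and 72 of 73 stayed at 2 or above. Without ETH 3 h replicate 1, 56 of 73 stayed within 0.5 of 0 at ETH 3 h. The genes were chosen with both of these libraries included, and MJ 3 h replicate 1 was the lowest of its group for 40 of the 73. The counts without them therefore do not bear on tissue make-up, whose part in these values was not tested.

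The 73 genes together took 0.336, 0.351 and 0.191% of the counts in the 3 libraries at 0 h. They took 1.85, 2.17 and 3.00% in the MJ 3 h libraries and 0.188, 0.221 and 0.208% in the MJ 24 h libraries. Their share was 0.364, 0.247 and 0.277% at ETH 3 h and 0.306, 0.256 and 0.262% at ETH 24 h. The sums of the MJ 3 h libraries lay above those of the other 12, and the rule had required this gene by gene against 0 h and MJ 24 h. The group without any role in the ratio conditions, ETH 24 h, lay in the range of 0 h. In bulk leaf RNA, fewer cells of a type and less RNA per cell cannot be told apart. The sum did not rest on 1 gene, but a few genes gave much of it. The top gene gave 8.88% of the mean at MJ 3 h, the top 5 gave 34.4% and the top 10 of the 73 gave 53.9%.

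**Figure D1:**
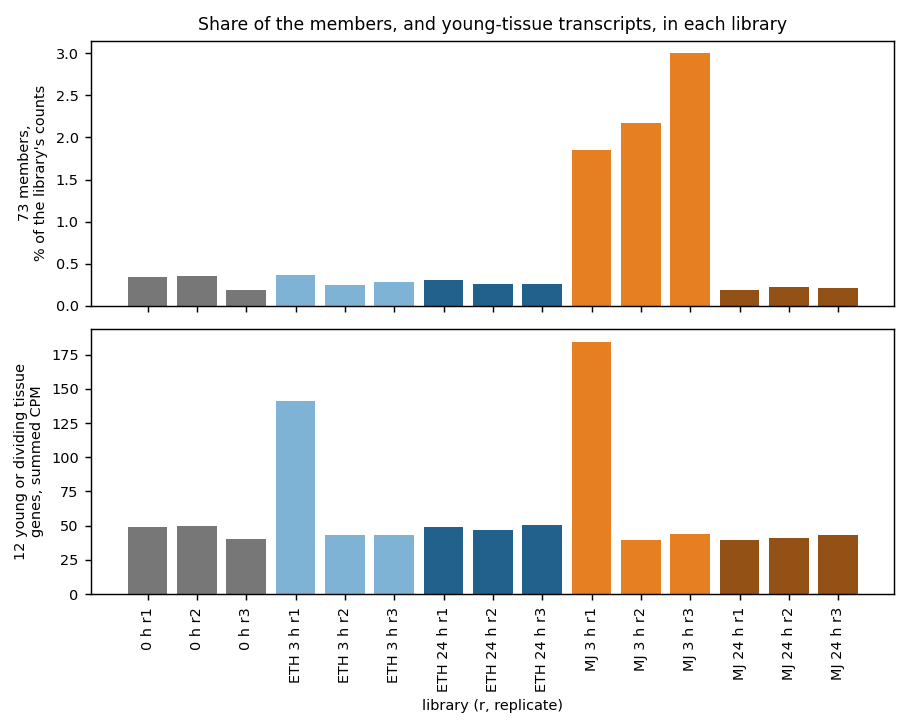
Top, the percentage of each library's counts that fell on the 73 genes; bottom, the summed CPM of 12 genes of young or dividing tissue, with 1 bar per library and colours for the 5 groups. The 73 genes took 1.85 to 3.00% of the MJ 3 h libraries, and the young-tissue genes were highest in MJ 3 h replicate 1 (184 CPM) and ETH 3 h replicate 1 (141 CPM).

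At 0 h the genes covered a wide range of counts. Means at 0 h were under 1 CPM for 8 genes, from 1 to under 10 CPM for 20, from 10 to under 100 CPM for 38 and at least 100 CPM for 7, with a median of 15.9 CPM. At MJ 3 h the median of the means was 164 CPM, with a range of 7.72 to 2080 CPM, and 43 genes exceeded 100 CPM. The log2 ratio at MJ 3 h ran from 2.04 to 8.11 with a median of 2.94. It was under 3 for 38 genes, at least 4 for 14 and at least 6 for 5. For 69 of the 73 genes every MJ 3 h library lay above all 12 other libraries, ETH 24 h included, and for 52 the lowest MJ 3 h library was more than 2 times the highest of the others. Over all 18008 genes tested, 4.39% had their MJ 3 h libraries above the other 12, and since the rule fixed most of this order, nothing is read from the difference.

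**Figure D2:**
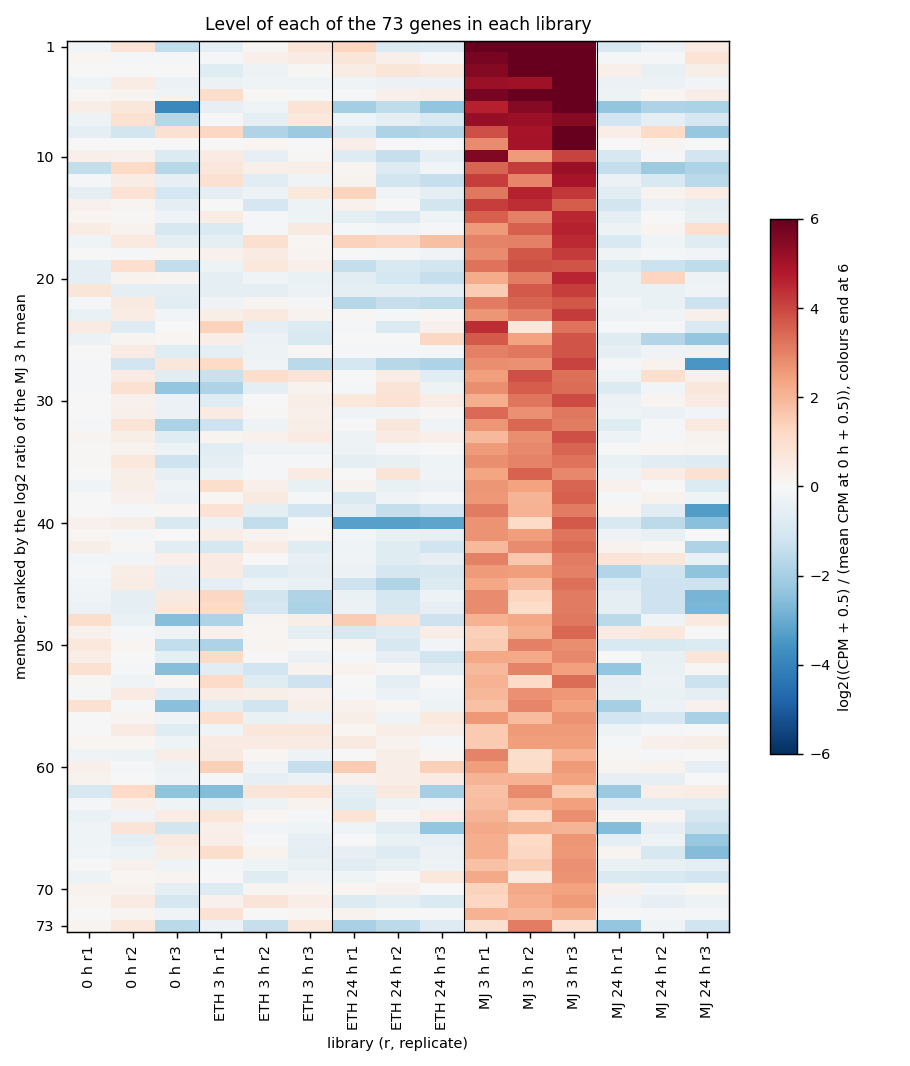
Each row is 1 of the 73 genes, ranked by its log2 ratio at MJ 3 h, and each column is 1 library; colour gives log2 of (CPM + 0.5) over (mean CPM at 0 h + 0.5). The 3 MJ 3 h columns are red throughout, and rank 40 (CRO_033673) is blue in all 3 ETH 24 h columns.

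The threshold itself passed through a continuous range of values. CRO_013069, CRO_007874 and CRO_020835 lay just inside it with log2 ratios of 2.04, 2.04 and 2.08. CRO_029835, CRO_008890 and CRO_021827 met every other condition and lay just outside it at 1.9996, 1.995 and 1.98. CRO_008890 had a control mean of 256 CPM, which was 1023 CPM at MJ 3 h and 214 CPM at MJ 24 h, a course like that of the genes inside.

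Names were at hand for few of the genes. The study's annotation could be read for 1022 of its gene lines, 2 of the 73 IDs were among them and 0 IDs matched the RefSeq gene table, so the other genes are given by their IDs alone. CRO_000242 is closest to Arabidopsis AT3G51520, of the diacylglycerol acyltransferase family, whose enzymes in Arabidopsis add the last acyl chain of triacylglycerol. It lies on the plus strand of scaffold 2988426 at 35797 to 39962, in coordinates of a draft assembly whose version is not given with them. Its level was 28.1, 40.5 and 17.3 CPM in the controls, 237, 260 and 396 CPM at MJ 3 h and 19.1, 24.6 and 22.8 CPM at MJ 24 h. All MJ 3 h libraries were over 5 times the highest of the other libraries, and the log2 ratio of 3.36 is a 10.2-fold ratio. After ETH the gene stayed at 19.9, 22.9 and 29.8 CPM at 3 h and 26.6, 26.3 and 27.3 CPM at 24 h.

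CRO_000526 is closest to Arabidopsis AT2G29500, an HSP20-like chaperone, and to a rice class I low-molecular-weight heat shock protein; such proteins keep unfolded proteins from clumping. It lies on the minus strand of scaffold 3056715 at 23386 to 23946 in the same coordinates. It was low at 0 h (3.31, 2.64 and 1.40 CPM) and reached 10.7, 20.5 and 29.8 CPM at MJ 3 h, a log2 ratio of 2.82. At MJ 24 h it was at 2.95, 2.56 and 0.325 CPM, and at ETH 3 h at 0.898, 3.45 and 1.26 CPM. Small heat shock proteins form families of similar genes, so part of these counts may belong to relatives.

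Known genes of jasmonate synthesis and of other pathways gave the set its surroundings. Of 5 listed genes of jasmonate and plastid lipid synthesis, 4 were tested at MJ 3 h against 0 h, 3 rose and 0 fell (edgeR quasi-likelihood test, Benjamini-Hochberg adjusted p under 0.05 and a fold above 1.5 in either direction), where 9.55% of all tested genes rose. LOX2, the lipoxygenase of jasmonate synthesis, went from 314 ± 271 to 2751 ± 1033 CPM (SD, n = 3), a fitted log2 change of 3.21 ± 0.78 (SE, edgeR adjusted p = 0.00990). It fell outside the set because its ratio at ETH 3 h was -1.41. FAD7, a plastid fatty acid desaturase that supplies trienoic fatty acids, went from 180 ± 136 to 1622 ± 696 CPM, with a log2 change of 3.27 ± 0.60 (edgeR adjusted p = 0.00215). ACP4, an acyl carrier protein of plastid fatty acid synthesis, rose by 0.85 ± 0.17 on the log2 scale (edgeR adjusted p = 0.00364).

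The other pathway and tissue lists were read at the same time point. Of the 13 listed MIA pathway genes, 1 rose and 0 fell, and that gene was HYS, the heteroyohimbine synthase of the ajmalicine branch. Its mean went from 2.98 ± 1.16 to 32.7 ± 32.4 CPM (SD, n = 3), so its MJ 3 h libraries differed widely. The list is partial, and the count does not stand for the whole pathway. It lacks STR and SGD, which the paper groups among genes responding to both treatments. Control means of CS and T3O were only 0.394 and 0.340 CPM, so little is read from them. Of 12 listed genes of precursor and specialised metabolism, 10 were tested and 1 rose, C4H of the phenylpropanoid pathway, with a log2 change of 1.32 ± 0.33 (edgeR adjusted p = 0.0107). Of 9 listed ethylene signalling genes, 8 were tested at MJ 3 h, and 0 rose or fell. The list medians were a log2 change of 2.03 for jasmonate and plastid lipids, 0.63 for the MIA pathway, 0.46 for precursors and 0.10 for ethylene signalling, beside 0.05 over all genes tested. The lipid median covers 4 genes, LOX2 and FAD7 among them. The MIA median includes genes that spread widely at MJ 3 h, such as T16H1/2 at 97.1 ± 85.3 and NMT at 160 ± 127 CPM (SD, n = 3). Others spread less, such as PRX1 at 470 ± 173 CPM. Of the 8 chloroplast genes, 4 fell, where 11.3% of all tested genes fell, with a list median of -0.68, and of the 12 young-tissue genes 0 rose or fell, with a list median of 1.32; the part of either in the levels of the 73 genes was not tested.

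The 5 genes with the most counts at MJ 3 h came from very different control levels. CRO_031126 had 683, 339 and 60.5 CPM in the controls, and 1394, 2885 and 1961 CPM at MJ 3 h. The control libraries of this gene differed by more than 10-fold and its log2 ratio was 2.52. At MJ 24 h it was at 72.3, 269 and 377 CPM, inside the range of 0 h. CRO_017908 had 53.6, 66.2 and 2.31 CPM in the controls. It had 1036, 1833 and 2856 CPM at MJ 3 h, where its lowest library was 14.2 times the highest of the other 12. It then stood at 7.49, 10.8 and 10.7 CPM at MJ 24 h and 9.38, 14.1 and 7.46 CPM at ETH 24 h. Those 6 libraries were below 0 h replicates 1 and 2 and above 0 h replicate 3, and the log2 ratio of -2.02 at MJ 24 h was the lowest of the set.

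CRO_006982 was steadier, at 139, 216 and 97.5 CPM in the controls and 1319, 1705 and 1983 CPM at MJ 3 h, a log2 ratio of 3.46. CRO_012140 reached 1357, 827 and 1442 CPM at MJ 3 h from 229, 249 and 191 CPM at 0 h. It was at 100.5, 112 and 58.2 CPM at MJ 24 h, below every 0 h library. CRO_025426 had 58.6, 83.9 and 44.5 CPM in the controls and 1132, 475 and 1959 CPM at MJ 3 h, where replicate 2 was the lowest of the group. Counts depend on transcript length, so this order of genes is one of counts and not of transcript number.

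The 5 genes with the largest ratios came next, and all of them but CRO_027893 were under 2 CPM in every 0 h library. CRO_027893 had 1.21, 2.91 and 0.199 CPM in the controls and 192, 424 and 993 CPM at MJ 3 h. Its log2 ratio of 8.11 was the largest of the set, and at MJ 24 h it was back at 0.481, 1.02 and 2.24 CPM. CRO_001805 had 1.82, 1.87 and 1.95 CPM in the controls and 108, 261 and 307 CPM at MJ 3 h, with 2.40, 1.26 and 2.53 CPM at MJ 24 h. Its 0 h libraries were the most even of these genes. CRO_020105 had 0.484, 0.574 and 0.279 CPM in the controls, 48.1, 73.7 and 75.4 CPM at MJ 3 h and 0.275, 0.512 and 0.759 CPM at MJ 24 h.

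Some genes were nearly silent outside MJ 3 h. CRO_033627 had 2, 0 and 0 counts at 0 h and 658, 2065 and 1983 counts at MJ 3 h, a 2181-fold ratio of pooled counts with a 95% exact binomial interval of 604 to 18018 that covers counting error only. CRO_010024 had 1, 10 and 0 counts at 0 h and 562, 635 and 3508 at MJ 3 h. It was read at 0, 0 and 2 counts at MJ 24 h. CRO_029045, named after its values were seen, was the 1 gene with 0 counts in all control libraries. It had 75, 472 and 905 counts at MJ 3 h, at least 449-fold higher than a floor of 3 counts over the 0 h group, and 0, 2 and 0 counts at MJ 24 h. In the plot of 12 members by library, CRO_033627 and CRO_010024 lie at the bottom of the axis in every group but MJ 3 h, and CRO_029045 is not shown.

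**Figure D3:**
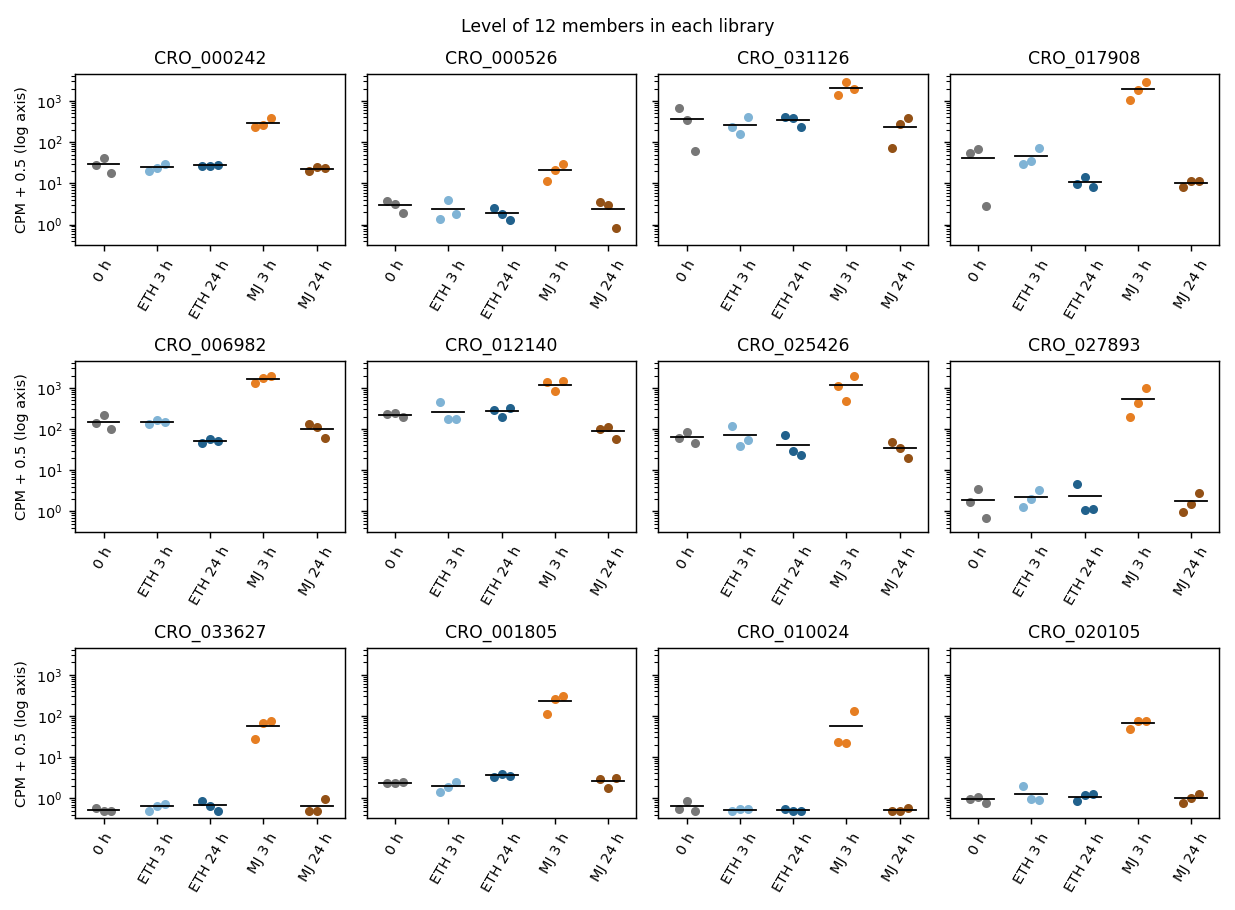
CPM + 0.5 on a log axis for 12 of the genes, with 1 point per library, replicates 1 to 3 from left to right, and a bar at each group's mean. Every MJ 3 h point lies above all other points of its gene, and CRO_017908 shows a low 0 h replicate 3 of 2.31 CPM.

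Levels of the 73 genes varied more among replicate libraries than those of a typical tested gene. The coefficient of variation among the 3 MJ 3 h libraries had a median of 46.1% over the 73 genes, beside 23.3% over all genes tested. The genes also varied more in the other groups, with medians of 39.7% at 0 h (all genes 17.0%), 47.2% at ETH 3 h (19.6%), 38.4% at MJ 24 h (17.9%) and 27.9% at ETH 24 h (10.6%). The comparison was not matched for level, and 22 of the 73 genes had a 0 h mean under 5 CPM, where counting error is larger. The rule also used most of these groups, so the medians are a description. The steadiest at MJ 3 h was CRO_007874 at 285, 257 and 291 CPM (6.56%), which had 67.2, 75.5 and 58.3 CPM at 0 h. The most variable was CRO_010024, whose replicate 3 was at 130 CPM and whose other 2 libraries were at 22.6 and 21.0 CPM (108%).

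The order of the MJ 3 h libraries differed between genes, with replicate 3 most often the highest. Replicate 3 of MJ 3 h was the highest of all 15 libraries for 54 genes, replicate 2 for 13 and replicate 1 for 6. The order 3 over 2 over 1, which LOX2 and FAD7 also followed, held for 29 genes, and 25 genes had the order 3 over 1 over 2. Replicate 1 was the lowest of the 3 for 40 genes and replicate 2 for 30. Leaving replicate 3 out brought the median log2 ratio down from 2.94 to 2.60, and 63 of 73 genes stayed at 2 or above. Among the controls, replicate 3 was the lowest library for 51 genes and replicate 2 the highest for 41. LOX2 stood at 600, 280 and 62.1 CPM in the same 3 controls. Such orders were not counted over all tested genes, so a trait of these genes cannot be told apart from one of the libraries.

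CRO_031302 and CRO_031303, named after their values were seen, bear consecutive IDs and had like levels in each library. CRO_031302 was at 90.3, 167 and 24.6 CPM in the controls and 597, 1021 and 825 CPM at MJ 3 h. CRO_031303 was at 79.6, 157 and 16.2 CPM and 576, 1066 and 854 CPM in the same libraries. How reads that match 2 near-identical copies were counted is not given, and the sequences of these IDs were not compared here. CRO_024791 and CRO_024792 were the other such pair, at 71.8, 47.5 and 143 CPM for the first and 4.24 to 17.0 CPM for the second at MJ 3 h, where the second was highest in replicate 1.

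At MJ 24 h the rule capped the log2 ratio at 0.5, so the levels there are a description. The ratio ran from -2.02 to 0.44 with a median of -0.29. It was below 0 for 54 genes, below -0.5 for 27 and below -1 for 12. Shares over all genes were not taken at these cuts, so nothing is read from the counts. For 8 of 73 genes (10.96%) every MJ 24 h library lay below every 0 h library, and this held for 16.4% of all tested genes. CRO_012140, whose values stand above, was 1 of the 8. At ETH 3 h the ratio was held within 0.5 of 0, yet single libraries strayed further. ETH 3 h replicate 1 was the highest of its group for 33 genes and the lowest for 31. CRO_012140 had 447, 171 and 172 CPM there.

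The rule was also applied to 2 replicate numbers, and the third was read. The libraries read did not pick the genes, but the rule itself was set with earlier results of these data known. The rule then chose 83, 83 and 36 genes, of which 46, 42 and 27 were among the 73. In the left-out libraries, set against the 0 h library of the same number, a log2 ratio of at least 2 at MJ 3 h was found for 52 of 83, 40 of 83 and 35 of 36 genes. Pooled over the 3 readings this is 127 of 202 (62.9%), beside 2.33% of all genes of at least 5 CPM, and a ratio of at least 1 was found for 176 (87.1%, all genes 7.91%). A ratio below 0.5 at MJ 24 h was found for 171 (84.7%) and for 86.0% of all genes, so nothing about the chosen genes is read from it. Over all tested genes, same-numbered MJ 3 h and 0 h libraries deviated together from their group means with r = -0.02, 0.53 and 0.47. The readings divide by those 0 h libraries. The shares are therefore a description and not an independent check of the set.

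The lack of change at ETH 3 h carried over less. In the left-out libraries 80 of 202 (39.6%) lay between -0.5 and 0.5, fewer than the 58.2% of all genes. All 3 conditions on the ratios were met together by 39 of 202 (19.3%), beside 0.393% of all genes. The direction of the departure differed: at ETH 3 h, 28 of 83 genes were above 0.5 and 24 below -0.5 in the replicate 1 libraries, 11 and 36 of 83 in those of replicate 2, and 21 and 2 of 36 in those of replicate 3. Replicate 3 of 0 h, the low control for many of these genes, was the divisor in the last. Each gene can be chosen in more than one reading, so the 202 are not separate genes.

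**Figure D4:**
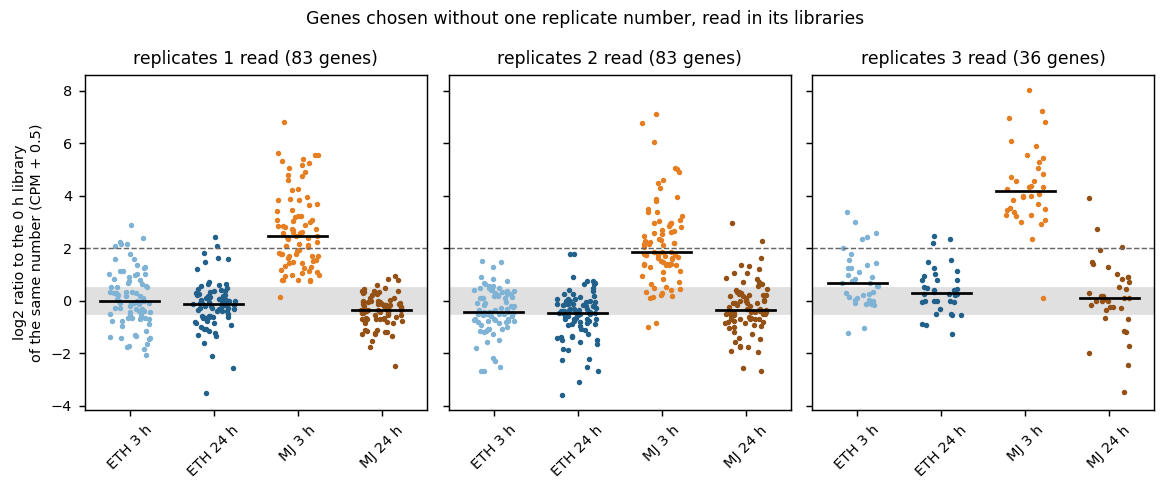
Log2 ratio to the 0 h library of the same number for genes chosen without that number, with 1 point per gene, a bar at the median, a dashed line at 2 and a grey band from -0.5 to 0.5. The medians at MJ 3 h are 2.48, 1.86 and 4.16, and the ETH 3 h points spread well beyond the band.

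ETH 24 h is the group that entered the rule only through the minimum level, so it was tested, though against 0 h libraries that the rule had used. All 73 genes passed the filter on low counts. Of these, 2 fell and 0 rose (2.74%), where 2.18% of the 18008 genes tested were called in either direction, 1.33% higher and 0.855% lower, so the share was near the background. An unadjusted p under 0.05 was reached by 10 of the 73 (13.7%) and by 18.7% of all genes. The median fitted log2 change was -0.24, beside -0.01 over all genes, and 48 of 73 were below 0 (65.8%, all genes 50.8%).

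CRO_033673 fell at ETH 24 h. It had 83.9, 86.8 and 36.2 CPM in the controls and 6.84, 6.80 and 7.25 CPM at ETH 24 h, a fitted log2 change of -3.34 ± 0.65 (SE, edgeR adjusted p = 0.0234). All ETH 24 h libraries were below all control libraries. The gene was at 54.7, 24.4 and 67.2 CPM at ETH 3 h, 446, 154 and 896 CPM at MJ 3 h and 37.0, 22.6 and 11.6 CPM at MJ 24 h. CRO_006982 fell from the 0 h values given above to 45.1, 58.3 and 52.3 CPM at ETH 24 h, a log2 change of -1.58 ± 0.33 (edgeR adjusted p = 0.0305), again with no overlap, and it was at 132, 169 and 145 CPM at ETH 3 h. Both calls were lost when any ETH 24 h library, or 0 h replicate 1 or 2, was left out, with log2 changes of -3.37 to -3.21 and -1.67 to -1.31. FAD7 also fell at ETH 24 h, to 33.3 ± 12.6 CPM (log2 change -2.45 ± 0.58, edgeR adjusted p = 0.0487). Its groups overlapped, with 40.1 CPM in 0 h replicate 3 and 45.7 CPM in ETH 24 h replicate 3, and its call was not read with libraries left out.

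By the ratio of means with 0.5 CPM added, the highest at ETH 24 h were CRO_023528 and CRO_002506, named after their values were seen. The fitted change was larger for CRO_029045 and CRO_033627, which had 0 to 10 counts per library in both groups. CRO_023528 was at 7.26, 13.5 and 5.82 CPM at 0 h and 23.6, 21.9 and 32.1 CPM at ETH 24 h, where the groups did not overlap, with a log2 change of 1.499 ± 0.51 that did not pass (edgeR adjusted p = 0.143). It was at 72.6, 75.9 and 211 CPM at MJ 3 h. CRO_002506 was at 217, 162 and 142 CPM at 0 h and 498, 233 and 473 CPM at ETH 24 h (log2 change 1.15 ± 0.57, edgeR adjusted p = 0.305). It was 1 of the 4 genes for which MJ 3 h did not clear all other libraries: its MJ 3 h values of 996, 373 and 1022 CPM overlapped those at ETH 24 h and ETH 3 h replicate 1 (467 CPM).

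**Figure D5:**
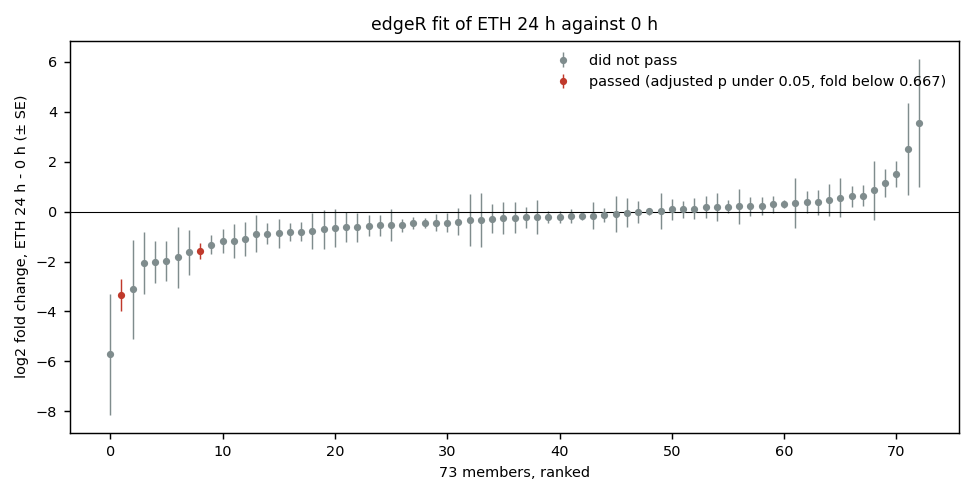
Fitted log2 fold change of ETH 24 h minus 0 h for the 73 genes in rank order, with bars of 1 SE. The 2 red points, CRO_033673 at -3.34 and CRO_006982 at -1.58, passed the test, and the far points with long bars are genes with few counts in both groups.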

How the data were processed

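The authors trimmed the reads and deposited raw HTSeq counts per gene. The submitters' processing notes name HISAT2 2.0.4 as aligner. The strand setting and version of HTSeq, and which of the 2 genome sources in the methods was used, are not given in the sources used here. Antisense partners may therefore not be told apart. The labels' extraction text names an animal brain region, although tissue is leaf. The table has 15 columns named by sample title, 0 columns of unknown samples, 0 rows that name no gene and 0 identical library pairs.

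Groups came from the labels. CPM used column sums. Counts were fitted in R 4.3.3 with edgeR 4.0.16 (TMM factors 0.8875 to 1.1386, filterByExpr, 5 group means, quasi-likelihood test, Benjamini-Hochberg over 18008 genes, common biological coefficient of variation 0.342). The study used EBSeq; its thresholds (adjusted p under 0.05, fold above 1.5 up or down) were kept. DESeq2 1.42.0 and limma 3.58.1 voom were alternatives. Scripts were tested on simulated data with known changes, as a check of the code and not of the results here. Python 3.11.15 ran scipy 1.17.1, pandas 2.3.3, numpy 2.4.6 and matplotlib 3.10.9.

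The members, lists and named-gene rule were chosen with earlier results of these data known. The rule named members with an Arabidopsis or rice match, the 5 highest at MJ 3 h, the 5 largest ratios, the smallest and largest coefficient of variation at MJ 3 h, up to 3 called each way at ETH 24 h and 3 genes on each side of the threshold. Intervals are 95% and, like the floor of 3 counts, cover counting error only. The authors' expression and module tables were not used.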

Additional observations from a re-analysis of the deposited data

How the results depend on the processing

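The number of genes chosen stayed within 1.5 times of 73 under 21 of 23 alternatives. It was 124 with a log2 ratio of at least 1.5 at MJ 3 h and 127 with an ETH 3 h range of -1 to 1. Leaving out 1 replicate gave 60 to 106 genes, but the genes turned over: without 0 h replicate 3, 47 of the 68 chosen were among the 73, and without 0 h replicate 2, 48 of 67. With the first replicates of MJ 3 h and ETH 3 h both left out, an alternative chosen after seeing the data, 87 genes were chosen, 55 of them among the 73.

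At ETH 24 h against 0 h, 393 genes were called by edgeR, 1130 by DESeq2, 2766 by limma voom with quality weights and 1175 with only the 2 groups in the fit. The members called were 2, 4, 10 and 5 in that order. Leaving out 1 replicate gave 83 to 182 genes and 0 to 3 members. The members' median log2 change stayed between -0.40 and -0.16 under all 13 alternatives run. With a replicate block 259 genes and 2 members were called; the numbers were not taken as pairs, since same-numbered ETH 24 h and 0 h libraries deviated together with r = -0.06, 0.39 and 0.33. The block changed no call of a member.

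At MJ 3 h against 0 h, whose alternatives were chosen after seeing the data, 3752 genes were called by edgeR and 2025 with only the 2 groups in the fit. It was 3704 with a replicate block and 2751 to 4126 with 1 replicate left out. The left-out reading of 62.9% was 97.2% in the replicate 3 libraries alone. Levels at MJ 3 h rested on single libraries for some genes: without replicate 3 the mean of CRO_010024 was 21.8 CPM in place of 58.0, that of CRO_027893 308 in place of 536 and that of CRO_033673 300.1 in place of 499, and without replicate 2 that of CRO_013069 was 4.46 in place of 9.85. The causes of these shifts were not tested.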
